A study of Mus musculus with 8 samples.

Results

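C130026I21Rik, 4930467E23Rik, Mup17, Mterf1b, Gm15319 and Cyp3a41b are 6 mouse genes with related copies on the same chromosome and with recurrent peaks in BMAL1 ChIP-seq of HC11 cells. For Mterf1b the related copy is a single gene, Mterf1a, 298 kb away. The genes were selected on these same peak lists, for overlapping peaks or high scores. Their peak counts, overlaps, ChIP tags and input tags are therefore given as descriptions. A peak belonged to a gene when the peak centre had its nearest curated RefSeq transcription start site (mouse genome GRCm38) in that gene. Of 211109 peaks in the 4 lists, 234 met this rule.

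HC11 is a mouse mammary epithelial cell line that makes milk proteins under lactogenic hormones. The study precipitated BMAL1 in 2 undifferentiated cultures, UNDIFF6 and UNDIFF8, and in 2 differentiated cultures, DIFF1 and DIFF2, to find its targets in both states. The 4 ChIP experiments were independent, and each was set against input, chromatin of the same culture that was not precipitated. Growth medium of every culture had 10% serum and 5 µg/mL insulin, and epidermal growth factor was withdrawn for 48 h. DIFF cultures were afterwards treated for 96 h with 3 lactogens, 0.1 µM dexamethasone, 5 µg/mL insulin and 5 µg/mL prolactin. Cells of both states were crosslinked in 1% formaldehyde. All samples are 1 cell line, no genotype differs between them, and no RNA was used here, so neither the epithelial identity of the cultures nor the activity of the 6 genes could be checked.

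The authors called peaks in each sample over its own input, and the lists held 6534 peaks (UNDIFF6), 5475 (UNDIFF8), 13683 (DIFF1) and 185417 (DIFF2). The DIFF2 list is far longer than the number of peaks that the paper gives for the DIFF samples, a difference not resolved here. Tag totals derived from tags and normalized tag counts were between 35.3 M (DIFF2) and 80.3 M tags (UNDIFF6). ChIP tags of UNDIFF6 and DIFF1 were listed after scaling to the input, so the totals of these lists are scaled as well. The totals therefore do not rank the 4 lists by ChIP depth. DIFF2 stood apart from the other lists: the centre of 86.0% of its peaks was soft-masked, the mark of repeats in the reference genome, against 21.4% to 26.6% of the peaks in the other lists. Counts pooled over the lists are mostly of DIFF2 peaks, which were 147 of the 234. Tags are as listed, scaled by the caller between ChIP and input within a sample, so they were compared within a list and only set side by side between lists.

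BMAL1 pairs with CLOCK to form the activator of the circadian clock, and the pair binds the E-box, a short motif with the letters CACGTG that reads the same on both strands. Genes that arose by repeated duplication stand side by side in arrays whose copies remain nearly identical in sequence. In such arrays a short read can match several places, and a peak is placed wherever the aligner puts its reads. The handling of reads with several equal matches was not stated in the methods or labels used here.

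The roles of the 6 genes are unequally known. Mup17 (chr4:61591929-61595865, minus strand) encodes a major urinary protein, a lipocalin that the mouse liver makes and that carries pheromones into urine. Cyp3a41b (chr5:145558664-145584732, minus strand) encodes a cytochrome P450 of the family that oxidizes drugs and steroids, largely in liver. Mterf1b (chr5:4192328-4197651, plus strand) encodes a mitochondrial transcription termination factor. C130026I21Rik (chr1:85241286-85282883, minus strand) is a RIKEN cDNA gene with Sp110, Sp140 and Sp100, which encode nuclear body proteins, 328 to 379 kb away. 4930467E23Rik (chr8:19704311-19753603, plus strand) and Gm15319 (chr8:20337664-20363202, minus strand) are predicted protein coding genes in the region of the defensins, a large family of antimicrobial peptides, and no role is given for them here.

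The sequences that recurred are shown first, before the counts. One overlapping site per gene is printed, the site found in most lists and then with the highest summed score. All are plus strand GRCm38 sequence, 5′ to 3′, taken at the peak of the first list that held the site. Capitals mark CATGTG or its complement CACATG, letters that differ from the E-box by 1 base. None of the 6 sequences holds CACGTG itself.
C130026I21Rik site 1 (UNDIFF6, chr1:85263892-85264086): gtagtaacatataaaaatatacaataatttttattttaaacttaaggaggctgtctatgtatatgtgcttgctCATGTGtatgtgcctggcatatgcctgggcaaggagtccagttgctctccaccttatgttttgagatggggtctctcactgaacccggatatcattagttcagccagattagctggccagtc
4930467E23Rik site 1 (UNDIFF6, chr8:19701416-19701610): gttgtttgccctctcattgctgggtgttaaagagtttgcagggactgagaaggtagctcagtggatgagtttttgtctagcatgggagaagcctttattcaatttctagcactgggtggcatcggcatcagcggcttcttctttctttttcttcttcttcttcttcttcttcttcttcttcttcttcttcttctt
Mup17 site 1 (UNDIFF8, chr4:61568522-61568750): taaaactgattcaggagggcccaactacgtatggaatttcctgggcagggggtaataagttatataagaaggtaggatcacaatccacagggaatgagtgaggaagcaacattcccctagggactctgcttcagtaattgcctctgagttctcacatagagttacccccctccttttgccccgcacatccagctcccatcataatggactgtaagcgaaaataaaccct
Mterf1b site 1 (UNDIFF6, chr5:4383674-4383868): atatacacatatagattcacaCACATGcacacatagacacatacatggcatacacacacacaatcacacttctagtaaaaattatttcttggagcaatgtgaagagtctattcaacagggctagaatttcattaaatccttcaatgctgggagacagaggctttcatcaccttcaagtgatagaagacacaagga
Gm15319 site 1 (UNDIFF6, chr8:20390833-20391027): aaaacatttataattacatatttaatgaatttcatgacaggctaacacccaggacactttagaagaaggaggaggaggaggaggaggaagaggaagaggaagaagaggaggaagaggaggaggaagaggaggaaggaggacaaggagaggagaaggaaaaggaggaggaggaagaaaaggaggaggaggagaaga
Cyp3a41b site 1 (UNDIFF6, chr5:145574990-145575184): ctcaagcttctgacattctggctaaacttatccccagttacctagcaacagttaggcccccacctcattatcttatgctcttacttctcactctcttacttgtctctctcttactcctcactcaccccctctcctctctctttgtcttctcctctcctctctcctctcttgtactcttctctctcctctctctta
Long runs of short repeated units can be read in several of them, of ttc at the end of the 4930467E23Rik site, of agg and gaa through the Gm15319 site, and of ct-rich letters through the Cyp3a41b site. The Mup17 sequence has no such run, and 9.17% of its bases are soft-masked, against 82.6% in the Gm15319 sequence.

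CACGTG was found in 6 of the 234 peaks, 2 in DIFF1 and 4 in DIFF2, and in 0 of the UNDIFF6 and 0 of the UNDIFF8 member peaks. Among all peaks of a list it was present in 2.13% (UNDIFF6), 1.46% (UNDIFF8), 2.01% (DIFF1) and 2.65% (DIFF2). None of the 6 peaks overlapped a peak of another list. The windows around the motif, with CACGTG in capitals, are printed because they are the only canonical E-boxes in these peaks.
C130026I21Rik (DIFF2, chr1:85257257-85257286): tatgctttcgcaCACGTGtgtgtgtgtgtg
4930467E23Rik (DIFF1, chr8:19703536-19703565): cacacagttcaaCACGTGagccacctgcct
4930467E23Rik (DIFF2, chr8:19798938-19798967): gggagtcagaggCACGTGtatttctgagtt
Mterf1b (DIFF1, chr5:4350136-4350165): catgggaagtaaCACGTGcagaacacagaa
Mterf1b (DIFF2, chr5:4308869-4308898): atggagcaggacCACGTGccctggaggagc
Gm15319 (DIFF2, chr8:20379581-20379610): tacaaactcatgCACGTGaaggtcagttct
The motif lay 76 bp from the peak centre in the Mterf1b peak of DIFF1 and within 24 bp of it in the 5 others. Both Mterf1b peaks were made of sequence found at 1 place in the genome, and the C130026I21Rik motif ran into a stretch of tg repeats.

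Peak numbers differed widely between the genes and between the lists. 4930467E23Rik had 6 peaks in UNDIFF6, 17 in UNDIFF8, 6 in DIFF1 and 50 in DIFF2. Mterf1b had 8, 12, 5 and 53 in the same order. These genes together held 157 of the 234 peaks, and they also had the longest stretches of chromosome nearest to their start sites, 401 kb (100 kb of them unknown bases) and 327 kb.
C130026I21Rik, with 54.7 kb nearest to it, had 3, 2, 1 and 8 peaks in UNDIFF6, UNDIFF8, DIFF1 and DIFF2. Mup17 had 1, 6, 1 and 6 peaks in 77.3 kb and was the 1 gene of the 6 with as many peaks in UNDIFF8 as in DIFF2. Gm15319 had 3, 6, 0 and 13 in 63.7 kb, so DIFF1 gave no peak there, and Cyp3a41b had 1, 7, 2 and 17 in 125 kb.

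**Figure D1:**
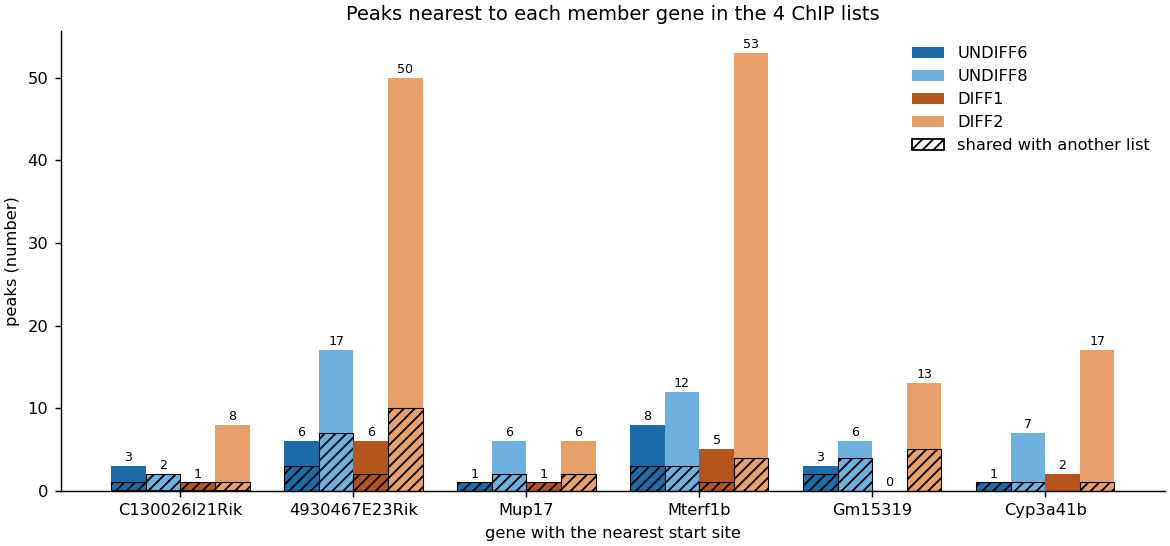
Number of peaks whose centre was nearest to the start site of each gene, 1 bar per ChIP list, with the hatched part giving the peaks that share at least 1 bp with a peak of another list. DIFF2 had the highest bar at 5 genes, up to 53 peaks at Mterf1b, and equalled UNDIFF8 at Mup17 with 6.

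A peak near each of the 6 genes is less unusual in some lists than in others. Among 26180 genes with a curated start site, the percentage that was nearest to at least 1 peak was 13.2% in UNDIFF6, 9.19% in UNDIFF8, 24.5% in DIFF1 and 80.6% in DIFF2, and 4.32% were nearest to a peak in every list. Here 5 of the 6 genes had a peak in every list, a count that the choice of the genes favoured. In DIFF2 a nearest peak was thus the rule for genes of any kind.

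Per length of sequence, the 6 genes together were denser in peaks than the genome in every list. The known bases nearest to them, 949 kb in all, held 23.2 peaks per Mb in UNDIFF6, 52.7 in UNDIFF8, 15.8 in DIFF1 and 155 in DIFF2. Divided by the density over all chromosomes, this was 9.67 times in UNDIFF6, 26.2 times in UNDIFF8, 3.15 times in DIFF1 and 2.28 times in DIFF2. The excess was highest in UNDIFF8, the shortest list, and lowest in DIFF2, the longest.

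As a share of each list, peaks nearest to the 6 genes made up 0.337% of UNDIFF6 (95% Wilson interval 0.222 to 0.509), 0.913% of UNDIFF8 (0.693 to 1.20), 0.11% of DIFF1 (0.0664 to 0.181) and 0.0793% of DIFF2 (0.0675 to 0.0932). Both UNDIFF lists lay above both DIFF lists, and the intervals cover counting error only. The mean share was 0.625% ± 0.408 (SD, n = 2) in UNDIFF and 0.0945% ± 0.0215 (SD, n = 2) in DIFF, a log2 difference of -2.57. The exact permutation test (two-sided) gave p = 0.333, the smallest p that 2 lists against 2 allow. It could therefore show no difference between the states whatever the values. The genes were chosen on these same lists, so the shares remain descriptions.
The order did not survive equal list lengths. With the highest scoring 5475 peaks of each list, the number in the shortest, DIFF2 had the highest share, 1.19%, and the log2 difference was -0.19 (p = 1, the same exact permutation test).

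The peaks were spread over the stretches nearest to the genes and did not gather at the start sites. None of the 234 lay within 1 kb of a start site, and the closest, a DIFF2 peak of Gm15319, was 1306 bp away. Placed by the peak centre against curated transcripts, 194 were intergenic, 38 lay in an intron and 2 in an exon. Of the peaks within curated transcripts, 31 lay in one of the member gene and 9 only in one of another gene in the same stretch.
C130026I21Rik and Gm15319 had most of their peaks inside transcripts. Of the 14 peaks of C130026I21Rik, 13 were intronic and 1 exonic. By curated transcripts, 9 lay within C130026I21Rik and 5 only within Gm38510, a predicted gene on the same strand whose long transcript covers the locus. The annotated C130026I21Rik gene is longer than its curated transcripts and also covers some of these 5. Gm15319 had 9 of 22 peaks in its own introns and 4 within 2610005L07Rik, a transcribed pseudogene upstream of it. Mup17 had none of its 14 peaks within a transcript, and 13 of them lay downstream of its short gene body, the nearest at 13.9 kb.

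**Figure D2:**
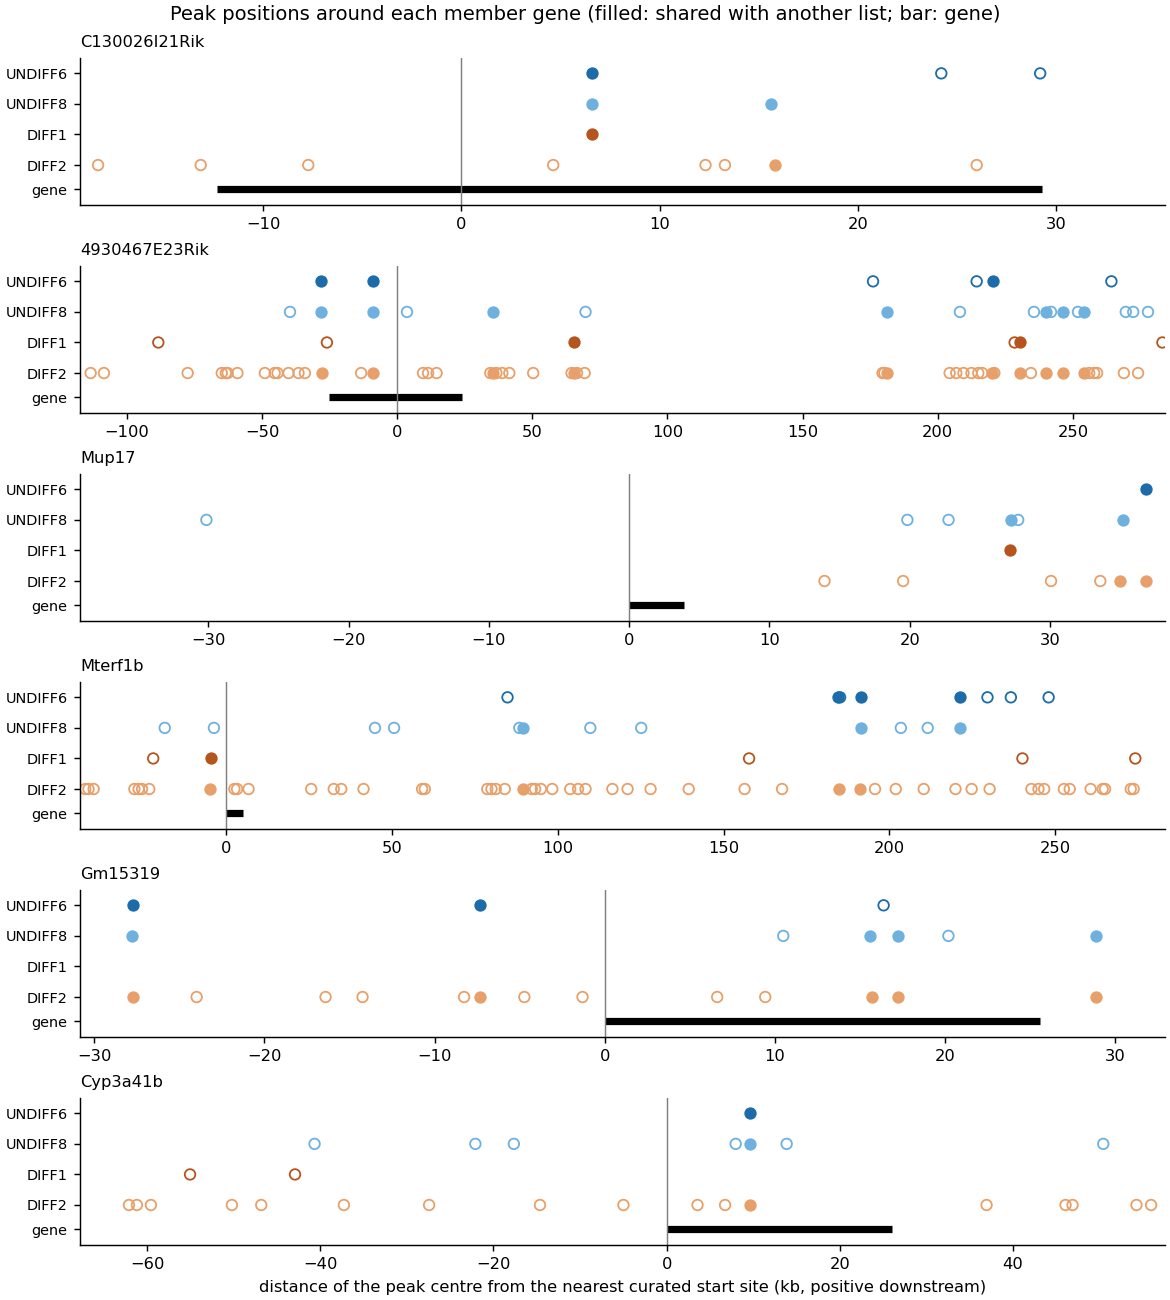
Distance of every peak centre from the start site (kb, positive downstream) for the 6 genes, 1 row per ChIP list, with filled points for peaks that overlap a peak of another list and a black bar for the annotated gene. Filled points stand in columns where lists coincide, as at 6.58 kb of C130026I21Rik, and 4930467E23Rik has no point between 69.7 and 176 kb, a stretch that includes the 100 kb of unknown bases.

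Positions recurred between lists more often at these genes than in the lists at large, which is how the genes came to be selected. Of the member peaks, 11 of 22 in UNDIFF6 (50%), 19 of 50 in UNDIFF8 (38%), 5 of 15 in DIFF1 (33.3%) and 23 of 147 in DIFF2 (15.6%) overlapped a peak of another list by at least 1 bp. Over all peaks the percentages were 7.27%, 11.1%, 6.29% and 0.859%. The 58 overlapping peaks fell into 26 sites, 20 found in 2 lists and 6 in 3, and no site was found in all 4. 4930467E23Rik had 10 of the sites, Mterf1b 5, Gm15319 5, Mup17 3, C130026I21Rik 2 and Cyp3a41b 1.
For 4 of the 6 genes, every list held at least 1 overlapping peak, a pattern seen in 66 of all 26180 genes (0.252%). The exceptions were Gm15319, with no DIFF1 peak, and Cyp3a41b, whose DIFF1 peaks overlapped none.

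By pairs of lists, most coincidences joined an UNDIFF list to DIFF2. UNDIFF8 and DIFF2 shared 16 pairs of member peaks, which took in 32% of the member peaks of UNDIFF8 and 10.9% of those of DIFF2. UNDIFF6 and DIFF2 shared 9 (40.9% and 6.12%), and UNDIFF6 and UNDIFF8 shared 7 (31.8% and 14%). DIFF1 took part in few: 3 pairs with DIFF2, 2 with UNDIFF8 and 1 with UNDIFF6. Of all 95 overlapping pairs between UNDIFF6 and UNDIFF8, the 7 at these genes were 7.37%, whereas of the 776 between DIFF1 and DIFF2 the 3 were 0.387%. The overlaps were long, between 62 and 228 bp with a median of 194, and in 19 of 38 pairs the shorter peak lay whole inside the longer.
The count of sites rests on 2 lists, UNDIFF8 and DIFF2. Without UNDIFF8 13 sites were left, and without DIFF2 8.

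C130026I21Rik site 1 had the highest score summed over lists of the 26 sites, 289.5, and 4930467E23Rik site 3 came next with 215.5 from UNDIFF8 and DIFF2. C130026I21Rik site 1 was found in UNDIFF6, UNDIFF8 and DIFF1 with a findPeaks score (HOMER's position-adjusted count of tags at the peak) of 96.5 in each, which ranked it 4 in UNDIFF6, 15 in UNDIFF8 and 4 in DIFF1. It held 90.8 ChIP and 44.5 input tags in UNDIFF6, 95 and 41.6 in UNDIFF8, and 65.6 and 32.5 in DIFF1. The input was above the 90th percentile of the list in each case, which was 9.5, 10.6 and 5.5 tags. The fold over input was 2.04, 2.29 and 2.02, next to the authors' minimum of 2. DIFF2 had no peak there. The site lies 6.58 kb downstream of the start site in an intron of C130026I21Rik and Gm38510.
Site 2 of C130026I21Rik, 15.6 kb downstream and also intronic, was found in UNDIFF8 (89.5 ChIP and 24.2 input tags) and DIFF2 (91 and 31).

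The sites of 4930467E23Rik lay between -28.1 and 254 kb from its start site (negative, upstream), all intergenic by curated transcripts. The annotated gene begins upstream of the curated start site, and site 2 lies within it. Site 1 held 51.1 ChIP and 22 input tags in UNDIFF6, 50 and 14.5 in UNDIFF8 and 45.5 and 11.8 in DIFF2, with folds of 2.32, 3.45 and 3.86. Site 2, at -8.87 kb, had 28.7 and 12 tags in UNDIFF6, 23 and 1.9 in UNDIFF8 and 17 and 3.5 in DIFF2. The top-scoring peak of the gene was a shared site in UNDIFF6 (site 5, score 74.5) and UNDIFF8 (site 3, score 113), and overlapped no other list in DIFF1 (score 67.5) and DIFF2 (score 170). That DIFF2 peak, 180 kb downstream, had 259 ChIP tags over 122 input tags, a fold of 2.12.

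Mup17 had 3 sites, each in 2 lists and each between 27.2 and 36.9 kb downstream, beyond the end of the gene. Site 1 was found in UNDIFF8 (61.5 ChIP and 29 input tags, fold 2.12) and in DIFF1 (46.1 and 23, fold 2). Site 2 joined UNDIFF8 and DIFF2, and site 3 joined UNDIFF6 and DIFF2, so every list had a part in the sites but no pair of lists had more than 1.
Mterf1b had 5 sites, and the peaks of sites 1 and 4 were made whole of words found at 1 place in the genome, in every list that held them. Site 1, 191 kb downstream in the gene-poor stretch towards Fzd1, held 27.2 ChIP and 11.5 input tags in UNDIFF6, 34 and 8.7 in UNDIFF8 and 80.5 and 13.5 in DIFF2. Site 2, at -4.46 kb just upstream of the start site, was found in both DIFF lists, with 25.2 and 5.5 tags in DIFF1 and 36.5 and 10.1 in DIFF2.

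Gm15319 site 1 lies at -27.7 kb, upstream of its start site, in an intron of 2610005L07Rik. It held 31.5 ChIP and 9 input tags in UNDIFF6, 27.5 and 5.8 in UNDIFF8 and 25 and 4.6 in DIFF2, with folds of 3.5, 4.74 and 5.49. Site 3, in an intron of Gm15319, had the highest fold of any shared peak, 23.4 in DIFF2 (82.5 ChIP and 3.5 input tags), beside 8.97 in UNDIFF8.
The single site of Cyp3a41b, 9.64 kb downstream in an intron of the gene, held 26.8 and 8.5 tags in UNDIFF6, 33 and 4.3 in UNDIFF8 and 20.5 and 2.1 in DIFF2. Its folds were 3.15, 7.59 and 9.91 in the same order.

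Input tags at the member peaks were high. The genes were selected on overlaps or scores in these lists, and scores count tags, so the tag levels remain descriptions. The median input was 12.2 tags at the UNDIFF6 member peaks, 10.4 in UNDIFF8, 10.5 in DIFF1 and 8.5 in DIFF2, while the medians of the whole lists were 7, 6.3, 4 and 4.8. Divided by its own list median, the input was 1.75 times in UNDIFF6, 1.65 in UNDIFF8, 2.62 in DIFF1 and 1.77 in DIFF2. Above the 90th percentile of the input of their list were 59.1% of the member peaks in UNDIFF6, 50% in UNDIFF8, 73.3% in DIFF1 and 44.2% in DIFF2.
The ratio averaged 1.70 ± 0.0701 (SD, n = 2) in UNDIFF and 2.2 ± 0.604 (SD, n = 2) in DIFF, a log2 difference of 0.34 (p = 0.333, exact permutation test, two-sided, again the smallest possible). UNDIFF6 at 1.75 and DIFF2 at 1.77 were nearly equal, and without DIFF1 the log2 difference was 0.059. With all 4 lists and a fold over input of at least 4 required, the log2 difference turned to -0.012 (p = 1, exact permutation test).

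C130026I21Rik had the highest input of the 6 genes in every list, with medians of 26 tags in UNDIFF6, 32.9 in UNDIFF8, 32.5 in DIFF1 and 25.9 in DIFF2. All of its 14 peaks were above the median of their list. At the other end, the Cyp3a41b peaks of UNDIFF8 had a median of 4.3 input tags, under the list median of 6.3, although the same gene was above it in UNDIFF6 with 8.5, in DIFF1 with 15.2 and in DIFF2 with 7.4. Across all 4 lists, 191 of the 234 member peaks were above the input median of their list.

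**Figure D3:**
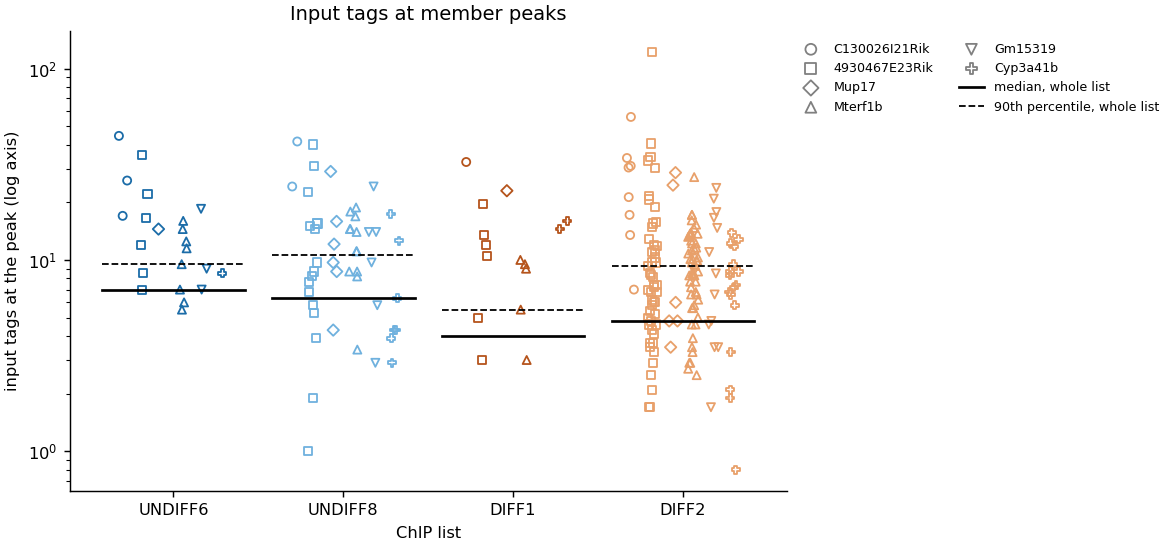
Input tags at each member peak (log axis) by ChIP list, 1 marker shape per gene, with the median (solid line) and 90th percentile (dashed line) of the whole list. C130026I21Rik has the highest marker in UNDIFF6 (44.5 tags), UNDIFF8 (41.6) and DIFF1 (32.5), and a 4930467E23Rik peak reaches 122 in DIFF2.

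The high input went with a low fold over input, although ChIP tags were high as well. Median ChIP tags at member peaks were 32.5 in UNDIFF6, 37.2 in UNDIFF8, 31.1 in DIFF1 and 40.5 in DIFF2, or 1.42, 1.49, 1.84 and 1.69 times the list medians. The median folds were 2.54, 3.58, 2.65 and 4.53, under the list medians of 3.40, 4.14, 4.31 and 5.15. At least 4-fold over input were 18.2%, 38%, 20% and 58.5% of the member peaks, against 33.2%, 52.9%, 57.5% and 67.9% of the lists.
Within the member peaks, ChIP and input tags moved together, with a Spearman rho of 0.89 over 22 peaks in UNDIFF6, 0.60 over 50 in UNDIFF8, 0.97 over 15 in DIFF1 and 0.58 over 147 in DIFF2. Over all peaks of the lists the values were between 0.36 and 0.46. These are descriptions, since the peaks of a list share a library and the caller's minimum fold.

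How far each peak could be told from the rest of the genome was measured on the reference sequence. Words of 50 bases were taken every 5 bases along each peak and looked up over both strands of the genome, and the share found at 1 place only was recorded. The median share was 70% at the UNDIFF6 member peaks, 62.5% in UNDIFF8, 82.4% in DIFF1 and 53.4% in DIFF2, against list medians of 100%, 100%, 100% and 84.5%. Peaks with less than 50% of such words were 31.8%, 28%, 20% and 45.6% of the member peaks and 2.05%, 5.64%, 3.92% and 14.0% of the lists.

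The genes differed among themselves on this measure. Gm15319 had the lowest median in each list where it had a peak, 0% in UNDIFF6, 22.2% in UNDIFF8 and 3.45% in DIFF2, and 10 of its 22 peaks had no unique word at all. Mterf1b had a median of 100% in each of UNDIFF6, UNDIFF8 and DIFF1, as in those lists at large, and 70.7% in DIFF2. The other genes lay between them with an order that changed from list to list. In UNDIFF8, for example, Mup17 had 58.3%, 4930467E23Rik 61.1%, C130026I21Rik 65.3% and Cyp3a41b 72.2%.
The peaks that overlapped another list were no more unique than those that did not. Their median shares of unique words were 66.7%, 52.8%, 50% and 53.4% in UNDIFF6, UNDIFF8, DIFF1 and DIFF2, and those of the remaining member peaks 86.7%, 77.8%, 92.6% and 54.3%.

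A near copy of a peak was counted when another stretch within 1000 kb aligned to it with at least 90% identity over at least 80% of its length. Such a copy was found for 13 of 22 member peaks in UNDIFF6, 38 of 50 in UNDIFF8, 10 of 15 in DIFF1 and 99 of 147 in DIFF2. Near copies were sought for member peaks only, so no share over all peaks stands beside these counts. The counts do not separate copies of the array from other repeats. Of the 58 member peaks whose centre was not soft-masked, 34 had a near copy. All 14 peaks of C130026I21Rik and all 22 of Gm15319 had one, as did 13 of 14 at Mup17, 23 of 27 at Cyp3a41b and 64 of 79 at 4930467E23Rik. Mterf1b had one at 24 of 78 peaks, and of the 21 Mterf1b peaks whose centre was not soft-masked 1 had one. Of the 275 near copies of Mterf1b peaks, 6 were nearest to Mterf1a.
The best copy was 97.2% identical in the median and lay at a median distance of 306 kb. Gm15319 had the closest copies, with a median of 99.6% identity and 7 peaks with a copy that was 100% identical over the aligned stretch.

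**Figure D4:**
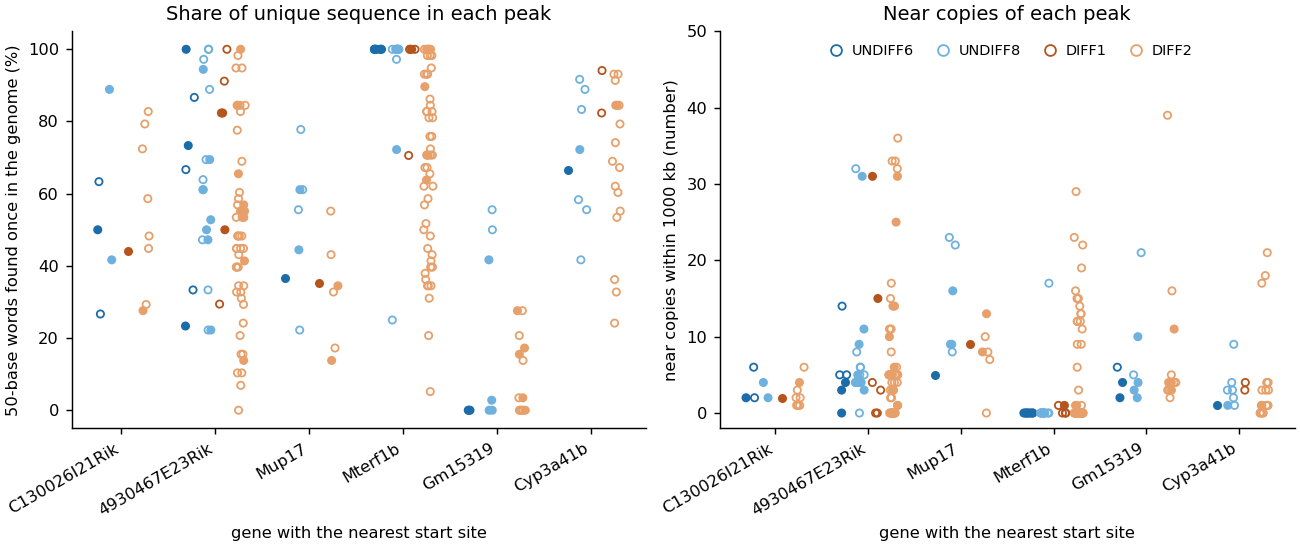
Left, percentage of 50-base words of each peak found once in the genome, and right, number of near copies within 1000 kb, for the 6 genes with 1 colour per list and filled points for peaks that overlap another list. Gm15319 reaches no higher than 55.6% on the left, Mterf1b peaks of UNDIFF6 all stand at 100% with 0 copies, and the highest number of copies is 39, at a DIFF2 peak of Gm15319.

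The share of near copies that held a peak of some list was 15.8% at C130026I21Rik, 18.5% at 4930467E23Rik, 20.4% at Mterf1b, 15.1% at Gm15319, 0.68% at Mup17 and 36.7% at Cyp3a41b, pooled over the lists. Of the 241 copies that held a peak, 185 were copies of DIFF2 peaks, from the longest list. No share was taken over other stretches of that length, so none stands beside these shares or the counts below. Differences between genes were not tested. Mup17 site 1 had 9 near copies, with one each at Mup11, Mup12, Mup22, Mup13, Mup14, Mup15, Mup16, Mup18 and Mup19, and the copy at Mup22 was 99.1% identical to the DIFF1 peak and 97.4% to the UNDIFF8 peak. None of these 9 copies held a peak in any list. Over all 13 Mup17 peaks with a near copy, 1 of 147 copies held a peak, and copies that align to several peaks were counted for each.
Of 109 near copies of Cyp3a41b peaks, 40 held a peak of some list, 33 of them for DIFF2 peaks. Site 1 of Cyp3a41b had 1 near copy, 135 kb away at the sister gene Cyp3a41a with 95.4% identity to the UNDIFF6 peak, and that copy held a DIFF2 peak. The copy of C130026I21Rik site 1 closest in sequence lay 342 kb away beside Sp110 (96.5% identical to the UNDIFF6 peak) and held a DIFF2 peak, although DIFF2 had no peak at site 1 itself. The slightly longer stretch there that aligned to the DIFF1 peak also touched an UNDIFF6 peak.
Gm15319 site 1 had a copy identical to the UNDIFF6 peak at Gm21119, without a peak. Of the 26 sites, 21 had a near copy, and at 12 a near copy held a peak of some list, 7 of them at 4930467E23Rik.
The 5 sites without a near copy were 4 of the 5 at Mterf1b and 1 at 4930467E23Rik.

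The related genes were compared with the 6 by the number of peaks and of overlapping peaks. An overlapping peak was found at 6 of the 22 Mup genes and 3 of the 9 Cyp3a genes, the members among them. No share over all genes stands beside these counts. The Mup family had 22 genes with a curated start site, of which 8 were nearest to a peak in UNDIFF6, 11 in UNDIFF8, 11 in DIFF1 and 18 in DIFF2, and 5 in every list. Mup16, next to Mup17, had 3, 5, 1 and 3 peaks and an overlapping peak in every list. Mup10, Mup12 and Mup14 had no peak in any list. All 9 genes of the Cyp3a family were nearest to a DIFF2 peak, and 4 had a peak in every list: Cyp3a11, Cyp3a41a, Cyp3a41b and Cyp3a57. Cyp3a41a, the sister copy of Cyp3a41b, had 3, 3, 2 and 15 peaks, and none of them overlapped another list. Cyp3a44 had 0, 2, 0 and 2 overlapping peaks, beside 1, 1, 0 and 1 at Cyp3a41b.
Mterf1a had 1, 3, 2 and 5 peaks against 8, 12, 5 and 53 at Mterf1b. Of the Sp genes near C130026I21Rik, Sp110 had 1, 2, 1 and 6 peaks, Sp100 had 9 in DIFF2 only, and Sp140 had none. Nearer genes that also held near copies had peaks as well. A530040E14Rik had 1, 2, 3 and 7, Gm7609 had 1, 3, 1 and 3, Gm7592 had 0, 2, 2 and 9, and A530032D15Rik had 0, 1, 1 and 3.

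Within 500 kb of the 6 start sites stood 55 other genes, and 52 of them were nearest to a DIFF2 peak, 19 to an UNDIFF6 peak, 29 to an UNDIFF8 peak and 27 to a DIFF1 peak. The neighbours 6820431F20Rik, a transcribed pseudogene beside Gm15319, had 2, 14, 2 and 19 peaks and Gm21119 had 0, 7, 1 and 13. Recurrence was not limited to the 6 genes, as 15 of the 55 neighbours had an overlapping peak. The share of all genes with an overlapping peak in any list was not counted, so whether 15 of 55 is many was not tested. In list order the overlapping peaks numbered 1, 6, 0 and 6 at 6820431F20Rik and 0, 6, 0 and 6 at Gm21119, beside 2, 4, 0 and 5 at Gm15319. Gm38510 had 1, 5, 0 and 5, beside 1, 2, 1 and 1 at C130026I21Rik. The borders between neighbours are set by the nearest start site, and peaks stood on both sides of them. The peaks just inside lay 0.793 to 8.99 kb from the border, with scores of 17 to 71, and those just outside 0.041 to 67.5 kb from it, with scores of 14 to 198. With model RefSeq transcripts added to the start sites, 14 sites in place of 26 were assigned to the 6 genes. The part that repeats, input and near copies play in the number and the recurrence of these peaks was not tested.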

How the data were processed

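The authors sequenced BMAL1 ChIP and input DNA of each HC11 culture, used FastQC 0.11.7 for quality, the Fastx toolkit for trimming and Bowtie2 2.2.9 for alignment to GRCm38. Reads of 1 DIFF pair of ChIP and input were divided into 5 groups, of which 1 was used. Peaks were called per sample over its own input with HOMER 4.10 (fold over input, local fold and clonal fold of 2, FDR under 0.01). The deposited lists give signal values, namely ChIP tags, input tags and a normalized tag count, with input tags scaled to the ChIP in UNDIFF8 and DIFF2 and ChIP tags scaled to the input in UNDIFF6 and DIFF1. The deposited focus ratio is a fraction, the fold over input and local fold are ratios, the findPeaks score is a score, and the deposited p-value is unadjusted. Focus ratios and p-values were not used.

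Peaks were assigned to the nearest start site of 45756 curated RefSeq transcripts of 26180 genes. Overlap needed 1 bp, and the overlap and nearest-site steps were tested on simulated data against bedtools 2.31.1. Near copies were found with megablast (BLAST 2.17.0). Group values were compared as log2 by an exact permutation test (two-sided), whose smallest p is 0.333. The labels say that ChIP experiments were independent, and p-values measure only the spread between these samples. Files of the inputs on their own were not used here. Python 3.11.15, pandas 2.3.3, numpy 2.4.6, scipy 1.17.1 and matplotlib 3.10.9 were used.

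The members and lists were chosen with earlier results of these data known. The genes named are the 6 members, genes within 500 kb and the Mup, Cyp3a, Mterf1 and Sp100 families. The peaks named are shared sites and the top-scoring peak per list, and sequences are those of the leading shared sites. Peaks with CACGTG, and site copies with a peak, were singled out after their values were seen. The alternatives were a fold of at least 4, peaks outside soft-masked sequence, equal list lengths, start sites within 100 kb, model transcripts, an overlap of at least 50% of the shorter peak, and leaving out each ChIP list.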

Additional observations from a re-analysis of the deposited data

How the results depend on the processing

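The log2 difference in share (DIFF minus UNDIFF) was from -3.29 to -1.85 when 1 ChIP list was left out. At equal list lengths it was -0.19, and the lists no longer separated, with 0.402% in UNDIFF6, 0.913% in UNDIFF8, 0.237% in DIFF1 and 1.19% in DIFF2. No p fell under 0.333. The log2 difference in relative input was from 0.06 to 0.63 with 1 list left out, fell from 0.34 to 0.029 with soft-masked centres left out and to 0.067 at equal list lengths, and was -0.012 with a fold over input of at least 4. The 26 shared sites became 6 with a fold of at least 4, 4 with soft-masked centres left out, 17 with equal list lengths, 17 within 100 kb of a start site and 14 with model RefSeq transcripts. Leaving out 1 list gave 8 to 22 sites, 8 without DIFF2 and 13 without UNDIFF8. Fewer peaks or lists enter each of these counts by construction, and any further cause was not tested. An overlap of at least 50% of the shorter peak gave 23 sites. Of 164 values for single genes or lists under these alternatives, 75 moved. No paired analysis was possible because the UNDIFF lists carry replicate numbers 6 and 8 and the DIFF lists 1 and 2, and no ChIP group shares a number with the other. With 2 lists a state, p cannot pass 0.05, and tags outside peaks are not in the lists, so a gene without a peak was not shown to lack binding.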
